A study of Mus musculus with 17 samples.

Results

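The right ventricle (RV) was compared with the left ventricle (LV) of the mouse heart at postnatal day 3 (P3), in 6 of the 17 libraries of the series: LV replicates 1 to 3 and RV replicates 1 to 3, chosen by their sample titles. The animals of both groups were male C57Bl/6 newborns with no treatment, so chamber is the one labelled difference between the groups. Strand-specific paired-end libraries were made from total RNA, the labels call the samples biological replicates, and they do not say whether an LV and an RV sample came from one heart. The other 11 libraries are LV and RV at P0 (3 each) and at P7 (3 LV and 2 RV), and they enter here for the spread between replicates and for the chamber difference at those ages. The labels place P0 before closure of the ductus and describe P3 as a transition.

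Before birth the ventricles work side by side, and the RV carries much of the output through the ductus arteriosus. After birth, with the ductus and the oval foramen closing and the lung vessels opening, the LV takes over the high-pressure systemic circulation and the RV feeds the low-pressure lungs, while cardiac muscle cells leave the cell cycle. The chambers also differ by origin: the LV comes largely from the first heart field, marked by the transcription factor gene Hand1, and the RV from the second heart field, in which Hand2 is needed. Both are covered by epicardium, a mesothelial layer that is continuous with the lining of the pericardial cavity.

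The leading genes on either side can be placed on the genome. The natriuretic peptide genes Nppa and Nppb, the lowest in RV against LV, are neighbours on chromosome 4, with start sites 14822 bases apart. Upk3b, a mesothelial membrane protein gene and the highest in RV, lies at chr5:136038496-136044993 on GRCm38 (the mm10 assembly). Their promoters are shown because these 3 genes carry the largest chamber differences on the log2(RPKM + 1) scale used for the tests. By fold of the group means other genes of lower level exceed them, Hand1 (6.11-fold) among them. Each window runs from 250 bases before to 50 bases after the start site on the plus strand, as RefSeq gives it for GRCm38.p6. Capitals mark exact matches on either strand to GATA, the core of the GATA factor site, to GGAATG, the M-CAT element of TEAD factors, to AGGTGT, a T-box site, and to TATAAA, the TATA box.
Nppa (chr4:148000472-148000771): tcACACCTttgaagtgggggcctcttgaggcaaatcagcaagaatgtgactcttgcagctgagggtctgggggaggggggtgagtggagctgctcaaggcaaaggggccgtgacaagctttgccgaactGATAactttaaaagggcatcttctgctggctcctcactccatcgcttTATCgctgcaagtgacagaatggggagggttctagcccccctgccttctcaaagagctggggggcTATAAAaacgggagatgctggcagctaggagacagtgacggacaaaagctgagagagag
Nppb (chr4:147985650-147985949): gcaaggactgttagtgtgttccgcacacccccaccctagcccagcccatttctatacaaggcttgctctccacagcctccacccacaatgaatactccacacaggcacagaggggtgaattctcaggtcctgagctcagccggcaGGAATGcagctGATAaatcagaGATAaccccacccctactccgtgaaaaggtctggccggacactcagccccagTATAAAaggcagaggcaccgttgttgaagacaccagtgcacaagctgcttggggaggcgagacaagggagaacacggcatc
Upk3b (chr5:136038246-136038545): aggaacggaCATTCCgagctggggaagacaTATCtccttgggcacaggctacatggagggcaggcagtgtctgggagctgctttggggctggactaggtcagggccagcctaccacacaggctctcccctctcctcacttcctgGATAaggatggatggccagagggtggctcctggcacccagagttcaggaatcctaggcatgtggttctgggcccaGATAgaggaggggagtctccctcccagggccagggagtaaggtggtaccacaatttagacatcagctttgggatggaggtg
The Nppa window held 2 matches to GATA, 1 to the T-box letters and 1 to the TATA box, and the Nppb window held 2 to GATA, 1 to M-CAT and 1 to the TATA box. The Upk3b window held 3 matches to GATA and 1 to M-CAT. No match overlapped a match to another of the letters. Such matches are common by themselves: of 32851 promoters of this length in the table, 57.9% held GATA, 14.7% M-CAT, 13.7% the T-box letters and 13.6% the TATA box. Of 8180 promoters of tested genes 43.8%, 11.8%, 9.85% and 7.11% did, so they are a description of these windows and not evidence of binding.

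Levels are RPKM, reads scaled to transcript length and library size, 1 value per RefSeq transcript entry. Recovered library sizes at P3 were 35800467 to 37923538 reads in LV and 27561845 to 38964965 in RV, with RV replicate 2 the shallowest. Reads in listed entries made up 58.4% to 66.7% of an LV library and 60% to 62.2% of an RV library. The cardiomyocyte list, 12 genes of heart muscle cells, summed to 34091 to 42239 RPKM in LV and to 33520.3 to 36182 in RV, and none of the 12 was called. The atrial gene Sln was at 0 in 5 of the 6 libraries and at 0.0958 RPKM in the other. Other atrial genes were present, Myl7 at 85.4 to 141 RPKM. Of 13 tested atrial markers 9 had positive differences, against 4479 of all 10187 tested genes, and 4 had negative ones. Called were 0 higher in RV and 1 lower, Nppa, or 3 and 1 with the replicate number as a block. The part of atrial tissue in these values was not tested. Markers of thymus, lung and liver summed to 2.79 to 4.86 RPKM over 11 genes. In a principal component analysis of the 6 libraries the first component (43.4% of the variance) set replicate 2 of each chamber above the others of that chamber. The second component (28.9%) held the 3 LV libraries between -16.1 and -1.04 and the 3 RV libraries between 4.1 and 11.1.

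Of 10668 entries tested, 64 were higher (0.6%) and 24 lower (0.225%) in RV than in LV at P3 at an adjusted p under 0.05, in limma on log2(RPKM + 1) with Benjamini-Hochberg adjustment over all of them. Called differences ran from 1.76 down to -1.70 on this log2 scale, the smallest in size being 0.33, against a median of -0.02 over all tested entries. The RV-higher calls included 5 epicardial and mesothelial markers, 3 complement genes and 3 fibroblast markers. The LV-higher calls included both natriuretic peptides and 2 chamber patterning factors. In each of the 88 called entries the 3 RV values lay on one side of the 3 LV values. Of all tested entries, 8.34% had every RV library above every LV library and 8.76% had every RV library under every LV library.

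The size of the call list depended on how the replicates were treated. With the replicate number as a block the list grew to 326 RV-higher (3.06%) and 313 RV-lower (2.93%) entries, and it held all 88 of the calls above. With 1 entry per gene, 63 of 10187 tested genes were called higher and 23 lower in RV, or 322 and 307 with the block. The counts given for each gene list stand against these. With 1 library left out the count was 33 without LV replicate 1, 207 without LV replicate 2, 34 without LV replicate 3, 52 without RV replicate 1, 40 without RV replicate 2 and 95 without RV replicate 3. With no filter on low values 21 entries were called, 14 of the 88 among them, and 34 of the 43 called genes that the naming rule covers lost their call, including Nppa, Nppb, Hand1, Upk3b, Msln, C3 and Eln. The 88 entries kept their direction in each of the 6 leave-one-out fits, an outcome fixed in advance because their groups did not overlap. The call was less stable: 24 of them, 19 higher and 5 lower in RV, were called in every one. Among those 24 were Msln, C3, Igfbp6, Efemp1, Eln, Vwf, Wif1, Enpp6, Lrtm1, Rarres2, Hand1, Cpa1, Nppb and Nppa.

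**Figure D1:**
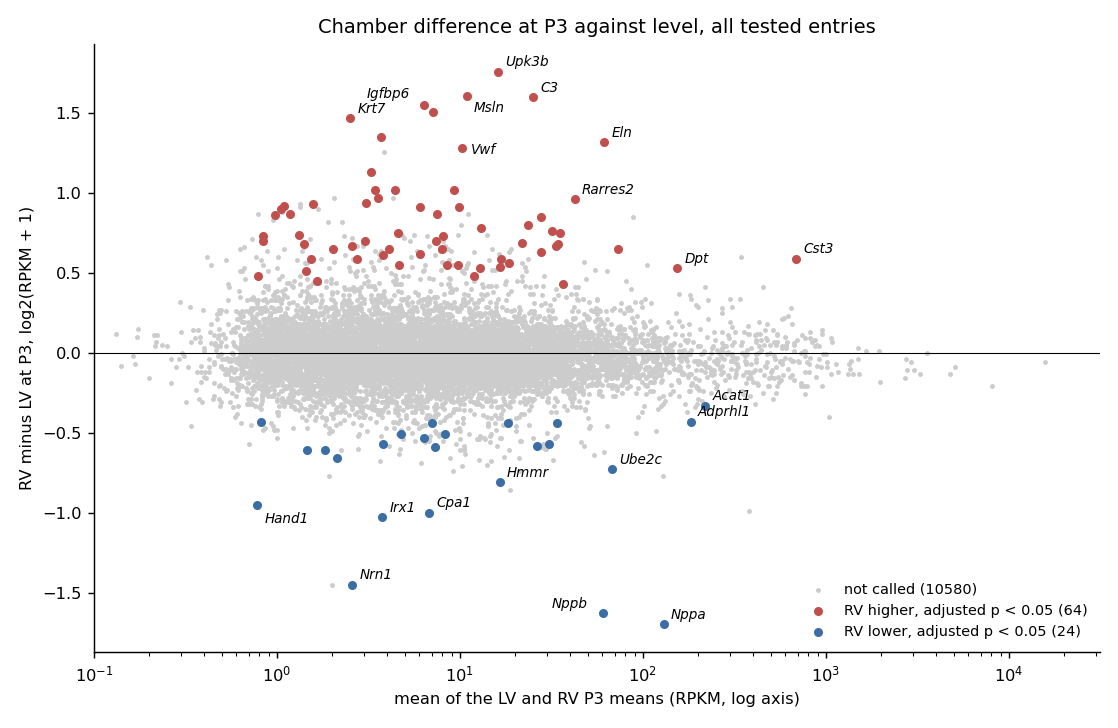
RV minus LV at P3 on the log2(RPKM + 1) scale against the mean of both group means (RPKM, log axis) for each of 10668 tested entries. Red points are the 64 called higher in RV, blue points the 24 called lower, grey points the rest; the calls on the RV side reach 1.76 at Upk3b and on the LV side -1.70 at Nppa.

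Both natriuretic peptide genes were lower in RV. Nppa, the gene of atrial natriuretic peptide, which ventricular muscle makes before birth and shuts down after it, measured 149, 282 and 169 RPKM in LV replicates 1 to 3 and 74.8, 43.8 and 60.1 in RV. Every LV value lay above every RV value, with LV replicate 2 the highest. The means were 199.6 ± 71.7 and 59.6 ± 15.5 RPKM (SD, n = 3 each), 3.35-fold apart, and the difference was -1.70 ± 0.29 (log2, SE; adjusted p = 0.00654). Nppb, the gene of brain natriuretic peptide, which rises with wall stretch, measured 92.9, 64.7 and 117 RPKM in LV and 39.2, 23.3 and 23.9 in RV. Its groups did not overlap either, and the difference was -1.63 ± 0.27 (adjusted p = 0.00555). Nppa overlaps an antisense transcript in the annotation, and no source used here says if strand entered the counting.

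Ankrd1, a stretch-responsive nuclear and sarcomeric protein gene, stood at 594, 326 and 586 RPKM in LV and at 310.0, 159 and 294 in RV. Its difference of -0.99 ± 0.27 missed the threshold (adjusted p = 0.0948) and passed it with the replicate block (adjusted p = 1.06e-06), the LV-to-RV step being -0.93, -1.03 and -0.99 in the same-numbered libraries 1, 2 and 3. Agt, the precursor of angiotensin, went the other way within the same list: 3.23, 3.17 and 2.44 RPKM in LV and 4.36, 6.61 and 4.74 in RV (0.65 ± 0.15, adjusted p = 0.0438, up to 0.255 without RV replicate 2). Of 24 tested genes of the natriuretic and haemodynamic stress list 1 was called higher and 2 lower in RV, or 3 and 6 with the replicate block. The list's median of 0.05 lay close to that of all tested genes (-0.02).

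Of the patterning factors, Hand1 and Irx1 were lower in RV. Hand1 measured 1.26, 1.38 and 1.37 RPKM in LV and 0.23, 0.363 and 0.0633 in RV. Its mean was 6.11-fold higher in LV at a low level in both chambers, and the difference on the log2(RPKM + 1) scale, which understates folds of low genes, was -0.95 ± 0.16 (adjusted p = 0.00766). Irx1, an Iroquois homeodomain factor of ventricular muscle, measured 5.24, 5.15 and 5.77 RPKM in LV and 1.58, 2.34 and 2.54 in RV (-1.03 ± 0.19, adjusted p = 0.0134). Its call was lost without LV replicate 1, LV replicate 3 or RV replicate 1, with adjusted p reaching 0.0692, while its log2 difference stayed between -1.12 and -0.89.

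Hand2, the related factor of the second heart field, stood at 32.6, 38.4 and 38.7 RPKM in LV and at 44.6, 55.9 and 46.1 in RV, without overlap, and its difference of 0.41 ± 0.11 was not called (adjusted p = 0.0785), but it was with the replicate block (adjusted p = 0.00754), with array weights and with quantile scaling. Hey2, a Notch-regulated repressor of compact ventricular muscle, differed by 0.35 ± 0.11 (adjusted p = 0.165, or 0.0139 with the replicate block). Tbx5, Irx4, Tbx20, Irx5 and Irx2 were not called at P3, either without the block or with the block fitted over the libraries of all ages. Tbx5 differed by 0.03 ± 0.14, Irx4 by 0.08 ± 0.11, Tbx20 by 0.16 ± 0.13, Irx5 by -0.46 ± 0.19 and Irx2 by -0.51 ± 0.22. At P0 Tbx5 differed by -0.40 (adjusted p = 0.628, or 0.0274 with the block). With the block in the P3 libraries alone, Irx5 (adjusted p = 0.0454) and Irx2 (0.0339) were called. Irx3 and Irx6 stayed below 0.5 RPKM in the 6 libraries and were not tested. Of 27 tested chamber patterning factors 0 were called higher and 2 lower in RV, or 2 and 3 with the replicate block, around a median of 0.03. The 3 lower ones with the block include a factor not named here.

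Myosin and other sarcomere genes of the set list of chamber genes were not called. Myh7, the slow myosin heavy chain that dominates the fetal mouse ventricle, ran from 98.3 to 457 RPKM within LV and from 168 to 442 within RV, with replicate 2 the lowest and replicate 1 the highest of each chamber (0.28 ± 0.36, adjusted p = 0.872). Myh6, its adult counterpart, differed by 0.25 ± 0.27. The atrial-type light chain genes Myl7 (0.29 ± 0.31) and Myl4 (-0.02 ± 0.27) and the Z-disc gene Tcap (-0.10 ± 0.19) were not called either. Ppp1r1b, a phosphatase inhibitor gene that shares a region with Tcap, measured 14.6, 13 and 12.6 RPKM in LV and 8.96, 9.49 and 8.85 in RV. Its groups did not overlap, but the difference of -0.51 ± 0.15 was not called (adjusted p = 0.111), though it was with the replicate block (adjusted p = 0.00108), with array weights and in the P3 libraries alone. Bmp10, a growth factor of trabecular and atrial muscle, was low in both chambers, at 0.809, 0.521 and 0.488 RPKM in LV and 2.07, 1.32 and 2.83 in RV (0.91 ± 0.23, adjusted p = 0.0703, or 0.000563 with the block).

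Genes that mark mesothelium were among the largest RV-higher values. Upk3b, a uroplakin that marks mesothelium, measured 6.07, 7.65 and 6.56 RPKM in LV and 28.1, 20.1 and 28.1 in RV. The groups were far apart, at 6.76 ± 0.811 and 25.4 ± 4.65 RPKM (SD, n = 3 each), a 3.76-fold difference (1.76 ± 0.31, adjusted p = 0.00798). Without LV replicate 1 its adjusted p was 0.0517. Msln, the mesothelial surface protein mesothelin, measured 4.38, 5.63 and 4.58 RPKM in LV and 17, 14.3 and 19.5 in RV (1.61 ± 0.26, adjusted p = 0.00555). Krt7, a keratin of simple epithelia, measured 0.665, 0.938 and 0.976 RPKM in LV and 3.89, 4.14 and 4.4 in RV, 4.82-fold higher in the mean (1.47 ± 0.27, adjusted p = 0.0113, or 0.0715 without LV replicate 1).

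These genes belong to a list of 14 epicardial and mesothelial markers, of which 13 were tested. Efemp1, a fibulin of the matrix (1.51 ± 0.26, adjusted p = 0.00766), and Upk1b, a tetraspanin of the uroplakin complex (1.35 ± 0.29, adjusted p = 0.0313), completed the 5 called members, all higher in RV. The Upk1b call was lost in 5 of the 6 leave-one-out fits (adjusted p up to 0.161). Lrrn4 (1.26 ± 0.31), Krt19 (0.97 ± 0.25), Bnc1 (0.66 ± 0.20) and Krt8 (0.45 ± 0.23) were called with the replicate block and not without it, which made 9 of 13 higher and 0 lower. The list's median was 0.97 against -0.02 over all 10187 tested genes, of which 63 were called higher, or 322 with the block. Its members did not move as one: the epicardial transcription factors Wt1 (0.10 ± 0.13) and Tbx18 (-0.07 ± 0.23) and the retinoic acid enzyme gene Aldh1a2 (0.04 ± 0.11), 23.3 to 27.8 RPKM in LV and 21.8 to 31.5 in RV, were not called in either fit and their groups overlapped.

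Summed over the 13 genes with a listed entry, these markers stood at 60.2, 60.7 and 60.7 RPKM in LV and at 121, 97.4 and 135 in RV. The sums did not overlap, and the exact two-sided permutation test gave p = 0.1, the smallest value that 3 against 3 libraries allow (0.237 after adjustment over 45 lists). In bulk tissue, more cells of a type and more RNA per cell cannot be told apart. How much of the ventricle's surface, or of the pericardial lining, each sample held is not given by the labels, and its part in these values was not tested.

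**Figure D2:**
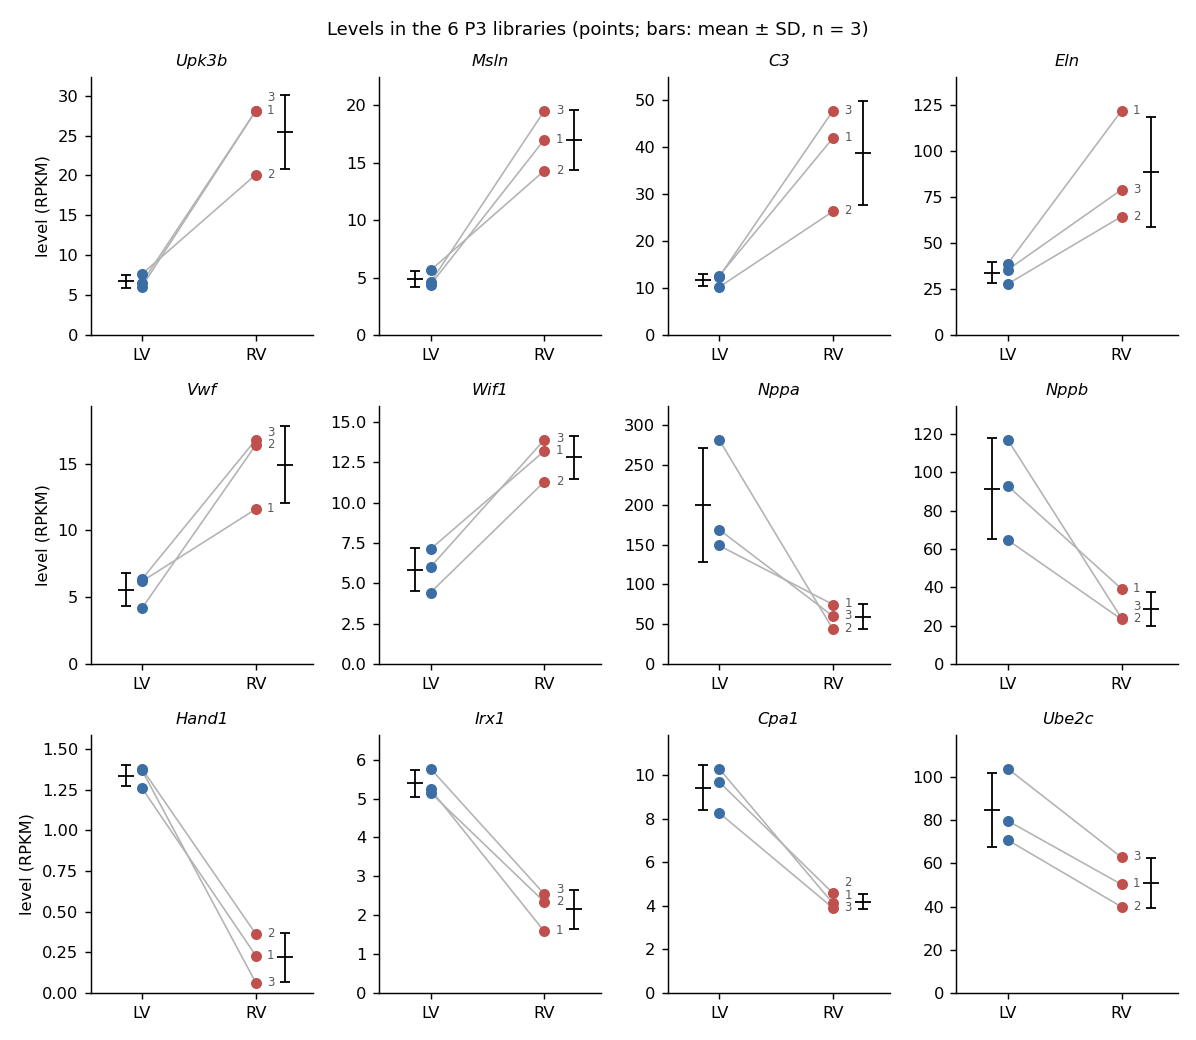
Levels (RPKM, linear axes from 0) of 12 genes in the 3 LV (blue) and 3 RV (red) libraries of P3, with bars for mean ± SD and grey lines joining libraries of one replicate number, which is printed beside the RV points. The groups stay apart in each panel, for example 6.07 to 7.65 RPKM against 20.1 to 28.1 for Upk3b and 149 to 282 against 43.8 to 74.8 for Nppa.

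Secreted and complement genes were higher in RV beside the mesothelial markers. C3, the central complement component, measured 12.6, 10.2 and 12.4 RPKM in LV and 41.9, 26.3 and 47.7 in RV (1.60 ± 0.29, adjusted p = 0.00814). Serping1, the inhibitor of the first complement component, differed by 0.67 ± 0.15 (adjusted p = 0.0408), a call that removal of any 1 of 5 libraries ended (adjusted p up to 0.175 without RV replicate 1). Of 17 tested complement and interferon-response genes 3 were called, all higher, C3 and Serping1 among them, and the block gave 6 higher and 1 lower, the lower one being the interferon-induced protease gene Usp18 (-0.47 ± 0.35). Igfbp6, a binding protein with preference for insulin-like growth factor 2, measured 2.55, 3.23 and 2.44 RPKM in LV and 11.1, 7.98 and 11.1 in RV (1.55 ± 0.24, adjusted p = 0.00417). Rarres2, the gene of the chemoattractant chemerin, stood at 26.9, 30.8 and 27.7 against 59.1, 60.1 and 50.2 RPKM (0.96 ± 0.14, adjusted p = 0.00279). Cst3, the secreted protease inhibitor cystatin C and the most abundant of the called RV-higher genes, rose from 550.0 ± 52.3 to 825 ± 4.08 RPKM (0.59 ± 0.09, adjusted p = 0.00417). Its 3 RV libraries read 826, 829 and 821.

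Matrix genes gave 1 call and a positive median. Eln, which encodes elastin of elastic fibres, measured 38.8, 27.8 and 35.5 RPKM in LV and 122, 64.5 and 79.1 in RV (1.32 ± 0.23, adjusted p = 0.00766). RV replicate 1 was the highest, and without it the difference was 1.06 with an adjusted p of 0.0455. Fbln5, which helps assemble elastic fibres, stood at 5.73, 5.87 and 6.15 RPKM in LV and at 12.5, 9.98 and 8.52 in RV (0.70 ± 0.17, adjusted p = 0.052, or 0.0135 with the block). Of 36 tested matrix genes Eln alone was called, but 12 were higher and 1 lower with the replicate block, and the median was 0.23. Over all 10187 tested genes the block called 322 higher and 307 lower. The fibrillar collagen genes Col1a1 (0.34 ± 0.24) and Col3a1 (0.41 ± 0.15) were among those the block added. Their groups overlapped, Col1a1 at 208, 108 and 176 RPKM in LV and 236, 161 and 211 in RV, with replicate 2 the lowest in each chamber.

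Fibroblast markers gave 3 calls of 13, all higher in RV. Dpt, the matrix protein dermatopontin, measured 128, 117 and 131 RPKM in LV and 179.5, 171 and 196 in RV (0.53 ± 0.10, adjusted p = 0.0134), and its adjusted p was 0.0537 without RV replicate 3. Tcf21, a transcription factor needed for cardiac fibroblasts, stood at 31, 30.9 and 31 against 43.5, 37.7 and 45.6 RPKM (0.43 ± 0.10, adjusted p = 0.0438), and Mfap4, a microfibril-associated protein gene, differed by 0.65 ± 0.14 (adjusted p = 0.0381). The calls of both were lost in most of the 6 leave-one-out fits, up to an adjusted p of 0.161 for Tcf21 without LV replicate 3 and of 0.174 for Mfap4 without RV replicate 1. With the block, 6 of the 13 were higher and 0 lower, and the median was 0.31. Among all 10187 tested genes 63 were called higher, or 322 higher and 307 lower with the block. Summed fibroblast markers were 878, 697 and 873 RPKM in LV and 1119, 931 and 1078 in RV (exact permutation p = 0.1). The part of fibroblast number in the matrix values was not tested.

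Endothelial genes were called in both directions. Vwf, the clotting factor that venous, arterial and endocardial endothelium stores, measured 6.19, 4.18 and 6.35 RPKM in LV and 11.6, 16.4 and 16.8 in RV (1.28 ± 0.19, adjusted p = 0.00417). It was the 1 called of 13 tested endothelial markers, whose median was 0.13. Fabp4, a fatty acid carrier of capillary endothelium, stood lower in RV at 909, 912 and 859 against 1119.6, 1333 and 1087 RPKM (-0.40 ± 0.16, adjusted p = 0.326, or 0.0152 with the block). The endothelial sum, in which Fabp4 is the largest term, was 1517, 1706 and 1475 RPKM in LV and 1302, 1322 and 1236 in RV. Apln, the peptide apelin of sprouting endothelium (-0.51 ± 0.11, adjusted p = 0.0381), and Clec1a, an endothelial lectin gene (-0.53 ± 0.11, adjusted p = 0.0242), were lower in RV. The Apln call was lost whichever of the 6 libraries was left out (adjusted p up to 0.165, without RV replicate 2) and the Clec1a call in 3 of 6 (up to 0.113, without RV replicate 1).

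Of endocardial and lymphatic genes, Plvap, Cdh11 and Lyve1 were higher in RV. Plvap, a diaphragm protein of fenestrated and endocardial endothelium, measured 19.1, 19.2 and 19.9 RPKM in LV and 29.2, 43.6 and 35.7 in RV (0.85 ± 0.16, adjusted p = 0.0139, up to 0.0954 without RV replicate 2). Cdh11, a cadherin of valve mesenchyme and fibroblasts, stood at 22.2, 23.8 and 23.6 against 33.3, 45.2 and 42.3 RPKM (0.76 ± 0.18, adjusted p = 0.0481, up to 0.23 without RV replicate 2). These were the called 2 of 12 endocardial and valve markers, against 63 higher and 23 lower of all 10187 tested genes. The block gave 5 higher and 0 lower around a median of 0.20, against 322 and 307 of all tested genes. Lyve1, a hyaluronan receptor of lymphatic endothelium and resident macrophages, measured 3.29, 4.3 and 4.08 RPKM in LV and 6.22, 9.52 and 9.11 in RV (0.91 ± 0.18, adjusted p = 0.0188, up to 0.113 without RV replicate 2). The lymphatic genes Prox1 (-0.09 ± 0.12) and Flt4 (-0.01 ± 0.13) did not move with it beyond their error.

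Tagln of the smooth muscle markers and the single mast cell gene Tpsb2 were higher in RV. Tagln, an actin-binding protein of smooth muscle, measured 15.8, 18.4 and 14.8 RPKM in LV and 30.6, 27.6 and 23 in RV (0.69 ± 0.15, adjusted p = 0.0365, up to 0.185 without LV replicate 3). Besides Tagln and Eln, none of the 15 tested markers of smooth muscle and the outflow wall was called, and the pericyte genes Rgs5 (-0.13 ± 0.11) and Kcnj8 (-0.20 ± 0.10) were not called in either fit. All 10 tested macrophage markers had positive differences, as did 4479 of all 10187 tested genes, with a median of 0.34, yet 0 were called, and the block called 2, Csf1r (0.57 ± 0.19) and Aif1 (0.51 ± 0.18). Tpsb2, a mast cell tryptase gene with a close paralog in Tpsab1, so that its reads are uncertain, stood at 6.86, 6.2 and 6.47 against 16.7, 11.4 and 11.8 RPKM (0.91 ± 0.17, adjusted p = 0.0133, up to 0.0683 without RV replicate 1). Tpsb2 is not among the 8 tested lymphoid, mast and granulocyte markers. Of these, 0 were called, 4 were positive and 4 negative, around a median of 0.01, and the block called 2 higher and 0 lower. Erythroid markers summed to 728 to 742 RPKM in LV and 600.1 to 839 in RV.

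**Figure D3:**
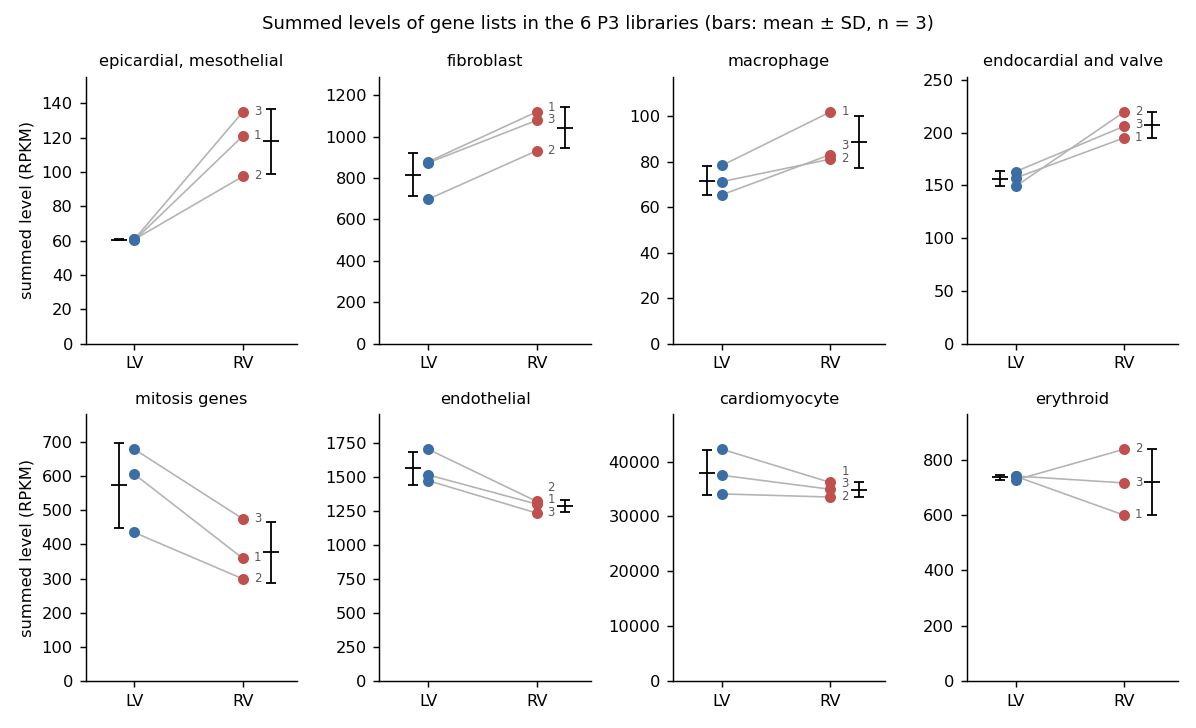
Summed levels (RPKM, linear axes from 0) of 7 marker lists and the mitosis list in the 3 LV (blue) and 3 RV (red) libraries of P3, with mean ± SD bars and lines joining equal replicate numbers. The epicardial and mesothelial sum rises from 60.2 to 60.7 in LV to 97.4 to 135 in RV, while the mitosis sum overlaps between chambers and falls along each of the 3 lines.

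Wif1 of the Wnt pathway and Gdf10 and Smad6 of the BMP pathway were higher in RV. Wif1, a secreted inhibitor that binds Wnt ligands, measured 7.12, 4.43 and 6.01 RPKM in LV and 13.2, 11.3 and 13.9 in RV (1.02 ± 0.15, adjusted p = 0.00366, at most 0.0188 in the leave-one-out fits). It was the 1 called of 27 tested Wnt ligands, receptors and modulators. The block added Rspo1, which amplifies Wnt signals (0.567, 0.618 and 0.594 RPKM in LV, 2.28, 1.56 and 2.36 in RV), and on the LV side Sfrp5, a decoy receptor (-0.57 ± 0.23). Gdf10, a BMP-like ligand (0.61 ± 0.13, adjusted p = 0.0297), and Smad6, an inhibitor inside the BMP pathway (0.55 ± 0.11, adjusted p = 0.0156), were the called 2 of 24 BMP and TGF-beta genes. Their calls were lost in 4 and 3 of the 6 leave-one-out fits, up to 0.147 without RV replicate 1 and 0.085 without RV replicate 2. With the block 6 of the 24 were higher and 0 lower, against 322 and 307 of all 10187 tested genes, around a median of 0.21.

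Enpp6, a choline-releasing phosphodiesterase gene, had the smallest adjusted p of the comparison (0.000446), at 2.61, 2.81 and 2.26 RPKM in LV and 5.28, 6.57 and 6.87 in RV (1.02 ± 0.12). Lrtm1 stood at 2.04, 1.95 and 2.29 against 4.53, 5.53 and 5.08 RPKM (0.97 ± 0.13, adjusted p = 0.00118), and it lies within Cacna2d3 on the opposite strand. Tmem108 differed by 0.87 ± 0.19 (adjusted p = 0.0297, up to 0.175 without RV replicate 2).

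On the LV side stood a secretory pair and several growth and guidance genes. Cpa1, a carboxypeptidase gene best known from the exocrine pancreas, measured 10.3, 9.69 and 8.27 RPKM in LV and 4.11, 4.58 and 3.9 in RV (-1.0 ± 0.12, adjusted p = 0.000646, at most 0.00739 in the leave-one-out fits). Nrn1, the small membrane-anchored protein neuritin, measured 4.6, 4.21 and 3.63 against 1.98, 0.582 and 0.407 RPKM (-1.45 ± 0.23, adjusted p = 0.00437). Nrn1 lies outside the rule for named genes because its mean stayed under 5 RPKM, and it is given here, like Krt7 and Cst3, after its values were seen. Ntn1, the guidance cue netrin 1, stood at 37.4, 36 and 36.9 against 24.4, 25.5 and 23.4 RPKM (-0.57 ± 0.13, adjusted p = 0.0489). Kitl, the ligand of the receptor Kit, stood at 21.8, 21 and 20.4 against 16.8, 14.9 and 14.2 RPKM (-0.44 ± 0.08, adjusted p = 0.0156). Cd109, a surface protein that binds TGF-beta (-0.44 ± 0.10), Arhgap18 (-0.44 ± 0.10), and Fam81a (-0.59 ± 0.14) were lower as well. None of Ntn1, Kitl, Cd109, Arhgap18 and Fam81a held its call in all 6 leave-one-out fits: the highest adjusted p was 0.182 and 0.0909 without LV replicates 3 and 1 for Ntn1 and Kitl, 0.241 without LV replicate 3 for Cd109, and 0.252 and 0.273 without RV replicate 2 for Arhgap18 and Fam81a.

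Of the energy genes listed, Acat1 was called. Acat1, the mitochondrial thiolase of ketone use, measured 235, 255 and 241 RPKM in LV and 189, 189 and 202 in RV (-0.33 ± 0.07, adjusted p = 0.0408), a call lost whichever library was left out (up to 0.175 without RV replicate 2). Oxct1, the enzyme that activates ketone bodies in heart muscle, stood at 118, 90.2 and 113 against 80.6, 60.2 and 86.4 RPKM (-0.50 ± 0.13, adjusted p = 0.0786, or 0.00053 with the block). Of 21 tested tricarboxylic acid and ketone genes 20 had negative differences, against 5708 of all 10187 tested genes. In 14 of the 21 every RV library lay under every LV library, against 901 of all 10187 tested genes. Of the 21, 1 was called lower and 5 with the block, against 23 and 307 of all tested genes, around a median of -0.20. Oxidative phosphorylation genes lay at a median of -0.11 with 0 of 35 called, or 2 lower with the block.

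**Figure D4:**
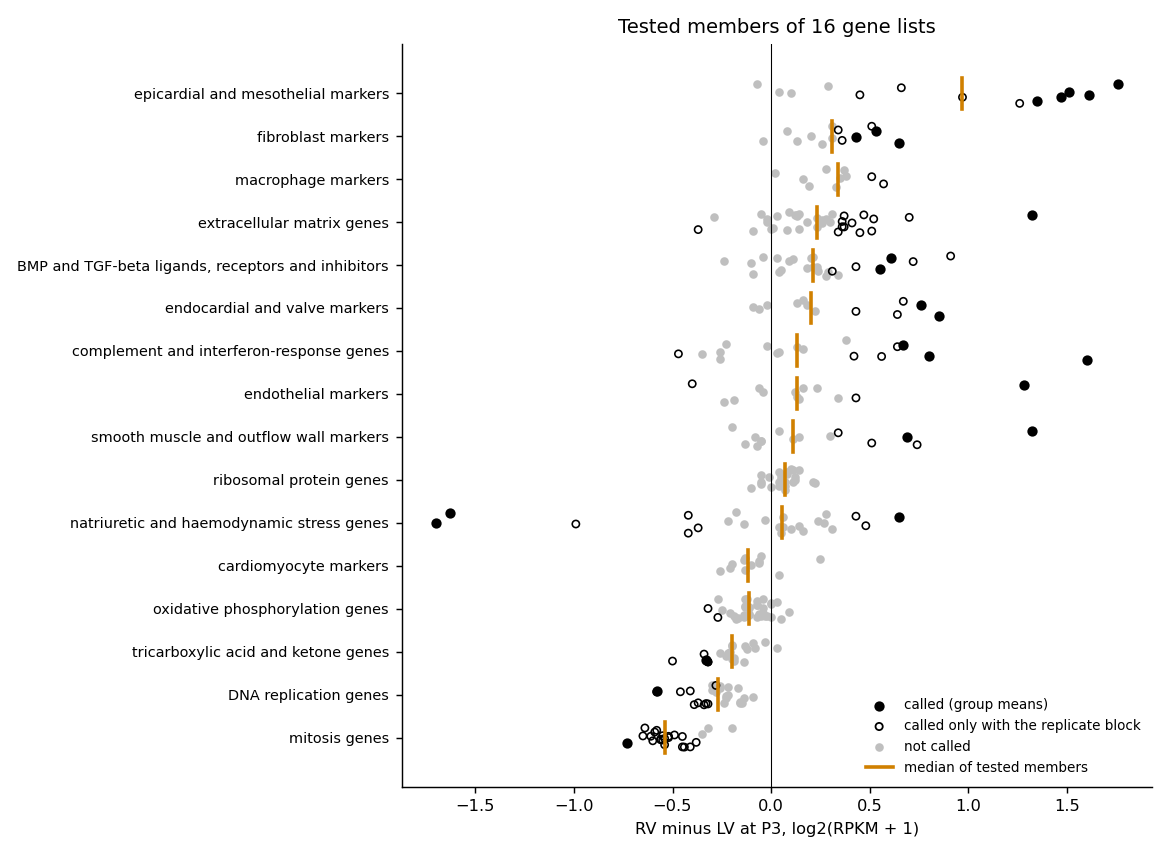
RV minus LV at P3 (log2(RPKM + 1) scale) for each tested member of 16 gene lists, 1 row a list, with the median as an orange bar. Filled points passed the fit of group means, open points passed with the replicate block and not in that fit; the epicardial and mesothelial median is 0.97, the mitosis median -0.54, and ribosomal protein genes stay between -0.10 and 0.22.

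For proliferation genes the count of calls turned on the treatment of the replicates. Ube2c, which with the anaphase-promoting complex marks mitotic proteins for destruction, measured 79.8, 70.9 and 104 RPKM in LV and 50.3, 39.9 and 62.8 in RV (-0.73 ± 0.14, adjusted p = 0.0144). Its call was lost without LV replicate 3 (0.106) or RV replicate 2. It was the 1 called of 24 tested mitosis genes, although all 24 had negative differences in each of the 3 pairs, as did 2515 of all 10187 tested genes. With the replicate block 21 of the 24 were lower and 0 higher, against 307 and 322 of all 10187 tested genes. Ccna2, the cyclin of S and G2 phase, shows the structure: 67.2, 49.9 and 80.6 RPKM in LV and 39.1, 33.5 and 52.5 in RV, so that the groups overlapped while each RV library lay under the LV library of its number (-0.64 ± 0.16, adjusted p = 0.0665, or 0.000104 with the block). The proliferation marker Mki67 measured 40.5, 33.4 and 46.4 against 24.9, 25.1 and 32.7 RPKM (-0.52 ± 0.13, adjusted p = 0.0716, or 0.000415 with the block).

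The mitosis list had a median of -0.54, and within the pairs it was -0.68, -0.41 and -0.45. Summed over 28 genes, mitosis transcripts stood at 606, 435 and 679 RPKM in LV and 359, 299 and 475 in RV, and the exact permutation test of the sums gave p = 0.2. The DNA replication list held the called Gmnn, geminin, which blocks relicensing of origins (35.8, 26.7 and 33.4 against 20.5, 18.7 and 23.5 RPKM, -0.58 ± 0.13, adjusted p = 0.0373, up to 0.183 without RV replicate 2). Of its 26 tested genes all had negative differences, 22 of them in each of the 3 pairs, against 5708 and 2515 of all 10187 tested genes. Of the 26, 1 was called lower and 10 with the block, against 23 and 307 of all tested genes, around a median of -0.27. Hmmr, a spindle protein gene (-0.81 ± 0.19, adjusted p = 0.0438, up to 0.263 without LV replicate 3), and Haus8, an augmin subunit gene (-0.51 ± 0.11, adjusted p = 0.0365, up to 0.216 without RV replicate 2), were lower in RV too. Which cells these transcripts came from cannot be read from bulk tissue. The cardiomyocyte sum overlapped between chambers as deposited. Under upper-quartile scaling it was higher in LV without overlap, at 39411, 36706 and 36177 against 35798, 34601 and 34798 in RV. The fibroblast and macrophage sums were higher in RV, and the part of cell makeup in the proliferation values was not tested.

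The chamber difference at P3 was set against that at P0 and P7, where 15 (0.141%) and 17 (0.159%) entries were called. Of the 88 calls at P3, 4 were among the 15 at P0 and 9 among the 17 at P7. Nrn1 was called at all 3 ages, at -1.30, -1.45 and -1.69. Hand1, Ntn1 and Oit3 were shared with P0, and Nppb, Wif1, Kitl, Ddc, Cpa1, Maob, Lrtm1 and Ubxn10 with P7. The 64 RV-higher entries of P3, whose median at that age was 0.73, had a median of 0.24 at P0 and of 0.31 at P7. At P0, 52 of them were positive and at P7 58, where 33.7% and 42% of all tested entries were. The 24 RV-lower entries went from a median of -0.58 at P3 to -0.21 at P0 and -0.20 at P7, with 21 negative at either age. Most of all tested entries were negative at these ages as well. Because the entries were chosen for their size at P3, smaller medians at the other ages are no finding.

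A direct test of the difference between ages called 0 entries for P3 against P0 (0%) and 0 for P3 against P7 (0%) in limma, with 535 and 519 entries at an unadjusted p under 0.05, and voom on the recovered reads also called 0 in both. With the replicate block, 101 entries (0.947%) differed between P3 and P0 and 27 (0.253%) between P3 and P7, so the statements that follow rest on the block. For Nppb the chambers did not differ beyond the test at P0, at 275 RPKM in LV and 347 in RV (0.37, adjusted p = 0.751, or 0.184 with the block). It stood at 91.5 and 28.8 RPKM at P3 (-1.63) and at 169 and 43.4 at P7 (-1.96). The change from P0 to P3 was -2.00 ± 0.38 in the fit of group means (adjusted p = 0.18) and had an adjusted p of 2.5e-05 with the block. Ankrd1 went from 779 in LV and 1197 in RV at P0 to 502 and 254 at P3, a change of -1.59 (adjusted p = 0.504, or 9.86e-07 with the block). Nppa moved from -0.44 to -1.70 (adjusted p = 0.0431 with the block). Casq1, a calcium-binding protein of the sarcoplasmic reticulum, was higher in RV at P0 (0.45) and P7 (0.42) and lower at P3 (-0.61), with block adjusted p of 0.00269 and 0.0298.

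C3, Upk3b and Msln differed more between chambers at P3 than at P0. C3 stood at 11.4 RPKM in LV and 10 in RV at P0 and at 11.7 and 38.7 at P3, a change of 1.70 (adjusted p = 7.02e-05 with the block). Upk3b was at 17.6 and 25.2 RPKM at P0, 6.76 and 25.4 at P3, and 5.77 and 13.3 at P7, so that its RV mean at P3 lay close to that at P0 and its LV mean lower (change in the difference 1.23, adjusted p = 0.00205 with the block). Msln had the same order of means, at 10.9 and 16.7 at P0 and 4.86 and 16.9 at P3 (change 1.01, adjusted p = 0.00333 with the block). The epicardial and mesothelial list had medians of 0.33, 0.97 and 0.53 at P0, P3 and P7.

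The mitosis list's medians were -0.20, -0.54 and -0.02 at P0, P3 and P7. Against P7 the block called Hmmr (LV 21.1 and RV 11.8 RPKM at P3, 12.6 and 13.5 at P7), Ube2c, Cdca3 and the cyclin Ccnb1 (35.8 and 23.3 at P3, 20 and 22.4 at P7), with adjusted p of 0.0222 to 0.0298. Hand1 and Ppp1r1b were called lower in RV at P0. Hand1 stood at 5.33 RPKM in LV and 1.05 in RV at P0 and at 0.134 and 0 at P7, where the RV is listed at 0, and Ppp1r1b, at 44 and 25.7 at P0 (-0.77, adjusted p = 0.0449), was at 2.76 and 3.08 at P7. The change of Hand1 passed the test in neither fit (adjusted p = 0.829 against P0, or 0.19 with the block).

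**Figure D5:**
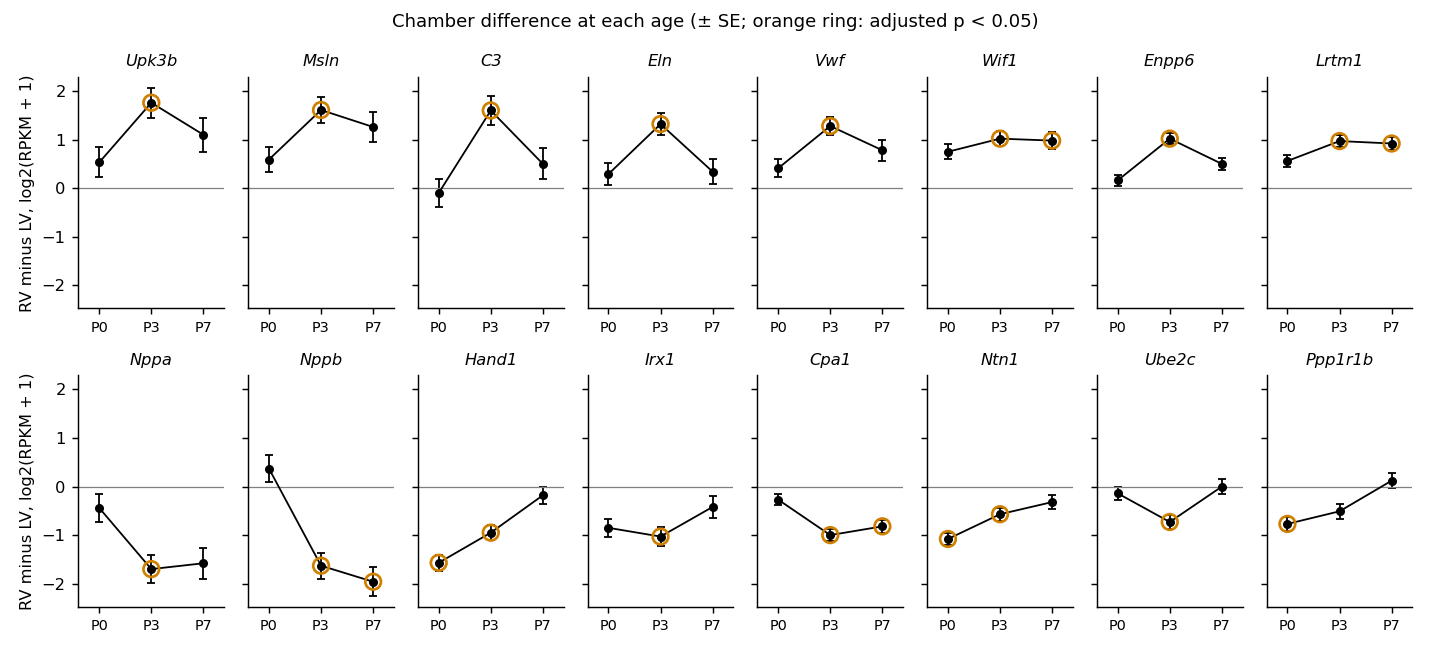
RV minus LV (log2(RPKM + 1), ± SE from the fit over 17 libraries) at P0, P3 and P7 for 16 genes, with orange rings where the adjusted p was under 0.05 at that age. Nppb runs from 0.37 at P0 to -1.63 and -1.96, Hand1 from -1.57 to -0.95 and -0.18, and Wif1 stays between 0.75 and 1.02.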

How the data were processed

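Total RNA of mouse LV and RV was sequenced from 17 samples at P0, P3 and P7. The authors deposited 1 table per sample with RPKM values for 20624 RefSeq transcript entries; the submitters' processing notes name STAR 2.4.0j and the mm10 build, while no source used here names the counter or its use of strand. The low values are whole multiples of 1 read within a tolerance of 0.02 reads for 20624 of 20624 entries, which gave the library sizes quoted and the reads for voom. The entry lengths used for this were themselves sought so that reads came out whole. Of 20336 entries with a length in the GENCODE annotation, 65.3% had a recovered length within 10% of it.

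The 10668 entries that reached 1 RPKM in 2 or more libraries were taken as log2(RPKM + 1) and fitted with limma 3.58.1 (R 4.3.3, trended prior) to 6 group means over the 17 libraries, with Benjamini-Hochberg adjustment and calls at an adjusted p under 0.05. Fold changes are on the log2(RPKM + 1) scale, which understates the change of low genes. Summed levels of marker lists were compared by exact two-sided permutation tests, which cannot go below p = 0.1 for 3 against 3. The fit of group means was tested on simulated data for the difference at P3, with libraries drawn independently. The fit with the replicate block was not tested in this way. P-values measure the spread between these samples. The 15 pairs of P3 libraries differed by 8.03 to 37.5 times the counting noise, so none was counted as a duplicate.

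The labels do not say that equal replicate numbers share a heart or litter. Deviations from the group means correlated between same-numbered LV and RV libraries at 0.491, 0.587 and 0.402 (P0), 0.36, 0.498 and 0.269 (P3) and 0.329 and 0.322 (P7), against -0.368 to 0.0939 for the other P3 pairings. Deviations within a group cancel, so positive same-numbered values by themselves push the other pairings down. Because same-numbered libraries shared deviations, the block result is given where it changes a call.

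Named genes were called entries without overlap whose higher group averaged 5 RPKM or more, the 15 highest and 15 lowest differences, up to 3 called members of each list, the 5 highest and 5 lowest differences between ages, and a set list of chamber genes; other list members are examples chosen after their values were seen. The members and the 45 gene lists were chosen with earlier results of these data known. Alternatives covered voom, upper-quartile and quantile scaling, array weights, pseudocount, filter, the P3 libraries alone, the replicate block, genes summed over entries and each library left out. Some named genes are not reported here.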

Additional observations from a re-analysis of the deposited data

Results flagged for a closer look

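For the genes named at P3, a chamber difference that differed from that at another age is listed when a test of the difference itself passed. None passed in the fit of group means, where the adjusted p ran from 0.18 upward, and those below passed with the replicate block. Natriuretic peptides stood out against P0, Nppb with a change of -2.00 (adjusted p = 2.5e-05 with the block, 0.18 without) and Nppa with -1.26 (0.0431 and 0.706).

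Changes to the RV side against P0 were 1.70 for C3 (7.02e-05 with the block), 1.23 for Upk3b (0.00205), 1.18 for Efemp1 (0.000184), 1.05 for Igfbp6 (0.0131) and 1.01 for Msln (0.00333). Smaller ones were 0.86 for Enpp6 (0.0114), 0.79 for Lyve1 (0.0201), 0.77 for Gdf10 (0.0228), 0.62 for Cdh11 (0.0431), 0.60 for Serping1 (0.0227) and 0.56 for Smad6 (0.0493). Changes to the LV side were -0.73 for Cpa1 (0.0228) and -0.59 for Ube2c (0.011).

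Against P7, Rarres2 changed by 0.85 (0.0387), Ppp1r1b by -0.63 (0.0495), Ube2c by -0.73 (0.0222) and Hmmr by -0.90 (0.0222), each with an adjusted p of 0.984 without the block.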

How the results depend on the processing

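The 88 entries called at P3 kept their direction under each alternative in which they were followed, with 63 of the 88 tested under the filter of 5 RPKM. Except under upper-quartile scaling, quantile scaling and voom, this outcome was fixed in advance, because their groups did not overlap. Entries summed per gene were not followed entry by entry. The number called was 639 with the replicate block over all libraries, 727 with the block in the P3 libraries alone, 368 with array weights, 222 with quantile scaling, 184 with upper-quartile scaling and 21 with no filter on low values, which held 14 of the 88. The block without pair 1, 2 or 3, chosen after seeing the data, gave 349, 368 and 317. Leaving out 1 library gave 33 to 207, and among libraries of other ages RV P0 replicate 1 moved it most, to 180.

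The P0 count of 15 became 98 with the block, 89 with array weights, 9 with voom and 3 with a filter of 5 RPKM, and 2 to 33 with 1 library left out. The P7 count of 17 became 107 with the block, 75 with array weights, 35 with upper-quartile scaling, 26 with voom, 11 with a pseudocount of 0.1 and 8 with no filter, and 0 to 25 with 1 library left out, 0 being the count without RV P7 replicate 1. The 0 calls for P3 against P0 became 101 with the block and 7 with array weights, and stayed 0 with any library left out. The 0 for P3 against P7 became 27 with the block and 2 with no filter, with 0 to 1 when a library was left out. The causes of these shifts were not tested. The block uses deviations shared by replicate number, which the residuals show, while the labels do not state a pairing. RV P3 replicate 2 had the fewest reads, and P7 has 2 RV libraries.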

Other observations

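Several lists not described above had summed levels without overlap between chambers at P3, each at the exact permutation p of 0.1 that 3 against 3 libraries allow (0.237 after adjustment over 45 lists). The lists below are examples. Among others, sums of left ventricular and first heart field genes and of adult-type contractile genes were lower in RV without overlap. The adult-type sums overlapped under upper-quartile scaling (exact permutation p = 0.3). Sums of right ventricular and second heart field genes were higher in RV without overlap. The median of that list's tested genes was -0.08, and its 1 call, Irx1, was lower in RV. Adipocyte markers, in which Fabp4 is the largest term, summed to 1166, 1374 and 1129 RPKM in LV and 949, 955 and 903 in RV. Glycolysis genes summed to 3946, 3733 and 4002 in LV and 3554, 3406 and 3730.5 in RV, with 0 of 22 tested genes called, but these sums overlapped under upper-quartile scaling (exact permutation p = 0.2). Retinoic acid pathway genes summed to 72.5, 69.7 and 71.5 in LV and 80.5, 77.8 and 86.4 in RV, with 0 of 10 tested genes called and a median difference of 0.04. Imprinted growth genes summed to 276, 208 and 261 in LV and 289.9, 292 and 297 in RV, with 0 of 10 called and a median of 0.18. Circadian clock, immediate-early and hypoxia-response genes gave 0 calls of 16 each, with or without the replicate block.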
